A study of Mus musculus with 10 samples.

Results

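Mouse embryonic stem cells taken out of etomoxir were compared with cells still under it, gene by gene, over the whole deposited gene table. The comparison used 4 of the 10 libraries of the series, 2 labelled ETO and 2 labelled Released, and tested 16056 of 49624 gene names. Both groups were E14tg2a cells, a blastocyst-derived line, in 2i/LIF medium, which holds an inhibitor of MEK, an inhibitor of GSK3 and the cytokine LIF. The ETO cells had been exposed to etomoxir for 4 days. The Released cells had the same 4 days of etomoxir and then 4 days without it. Control cells, 2 libraries of the same line given water, are shown beside them as reference values and with no test. A water group kept through the days of release was not analysed here, so release and the longer time in culture cannot be told apart. The WT and KO libraries were of cells described as of strain C57BL/6J with the alleles Mof fl/fl and Cre-ER TM, genotype wild type or Mof-KO, and given ethanol or 4-OHT (4-hydroxytamoxifen). They served to estimate the spread of each gene and counted toward the minimum level that chose the tested genes. Their own levels were not compared. The labels call the 2 libraries of a group biological duplicates and do not say that they came from separate cultures, so the p-values measure the spread between these samples. The dose of etomoxir is not given in the sources used here.

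Etomoxir inhibits carnitine palmitoyltransferase 1 (CPT1), the enzyme of the outer mitochondrial membrane that commits long-chain fatty acids to oxidation in mitochondria. Stem cells in 2i/LIF hold the naive state of pluripotency, cycle fast with a short G1 phase, and use both glycolysis and respiration. When nutrients or mitochondrial function fail, mammalian cells switch on the transcription factor ATF4, which raises amino acid transport and synthesis, and the factors TFEB and TFE3, which raise genes of the lysosome. The comparison asks which of these programmes differ once the inhibitor has been removed.

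Values are normalised counts, that is, reads divided by 1 factor per library, and log2 changes are Released minus ETO on the scale log2(normalised count + 1), which understates changes of weakly expressed genes. The ETO and Released libraries summed to between 10562067 and 11915168 normalised counts, and their reads were estimated at 10168073 to 16777476. A count of 0 allows up to 3 reads, or 2.07 to 3.52 normalised counts in the ETO, Released and Control libraries, a limit for counting error only. Replicates differed by a median of 0.12 on the log2 scale in ETO and 0.11 in Released. Markers of the labelled cell type were present: Nanog measured 4003 and 3843 normalised counts in ETO and 8980.4 and 9148 in Released, and none of the 27 naive pluripotency genes was missing from the test. Released replicate 1 stood apart in 1 respect. It alone had 0 for 2 abundant mitochondrial rows, a merged one that spans mt-Atp6 and mt-Nd5 (218611 in Released replicate 2) and mt-Nd6 (15492), which were left out of the comparison with a trace row of a mitochondrial tRNA.

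Release from etomoxir went with called changes in a large part of the tested genes. This part depended on the fit and was not a majority in every other fit. Of the 16056 genes tested, 5315 rose (33.1%) and 3947 fell (24.6%) at an adjusted p under 0.05 in limma. The 57.7% called is the background for the counts below, but the shares depended on level. Under a mean of 100 normalised counts 18.2% rose and 20% fell, and above 1000 the shares were 50.8% and 23.9%. Lists of abundant genes thus have a higher rising background than 33.1%. At least 2-fold rises were called for 1314 genes (8.18%) and at least 2-fold falls for 1737 (10.8%), and at least 4-fold for 210 and 612 genes. The median log2 change of all tested genes was 0.10. The ranges of the ETO and Released libraries lay apart in 12999 genes (81.0%). By other scalings of the libraries the split of the calls shifted from 57.4% rising to 48.9% with median-of-ratios factors, 45.8% with total signal, 48.2% with total signal less the mitochondrial and the 20 highest genes, and 55.5% with upper-quartile factors. Total signal moved the median of all genes by -0.13 on the log2 scale and its reduced form by -0.10, so changes near 0 have no settled direction.

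**Figure D1:**
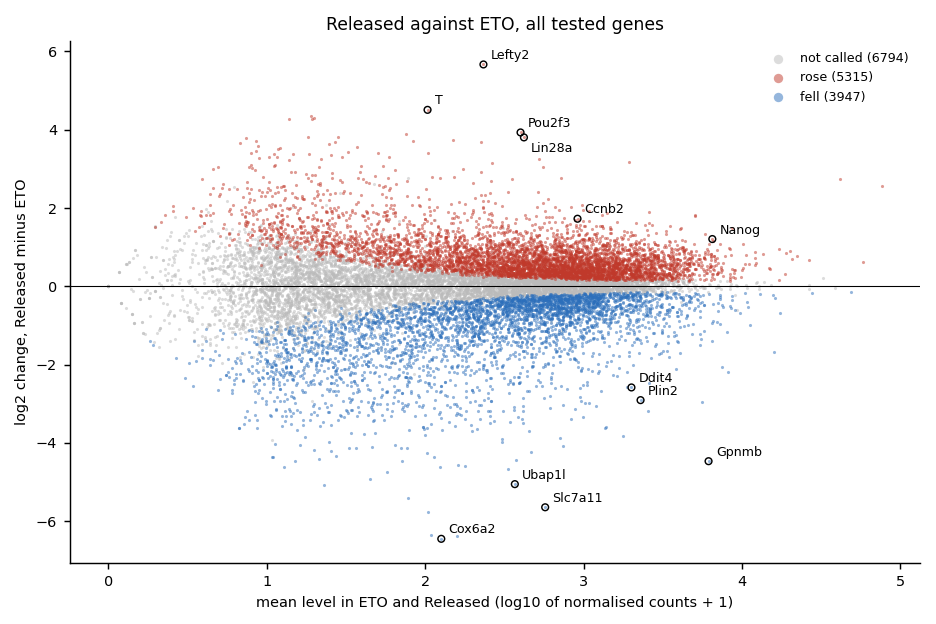
Each dot is 1 of the 16056 tested genes: the horizontal axis is the log10 of its mean normalised count in the ETO and Released libraries plus 1, the vertical axis its log2 change, Released minus ETO. Red genes rose (5315), blue genes fell (3947), grey genes were not called, and Lefty2 (5.67) and Cox6a2 (-6.45) mark the ends.

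Measured against Control, the Released libraries lay closer than the ETO libraries did, though these pairs share libraries and are given only side by side. The median absolute log2 difference over the tested genes was 0.18 between Released and Control, 0.49 between Released and ETO, and 0.52 between ETO and Control. A difference of at least 1 was measured for 1092 genes between Released and Control and for 3401 between Released and ETO. Among the 5315 genes that rose, 1743 (10.9% of all tested) had both Released libraries above both Control libraries. Among the 3947 that fell, 1217 (7.58% of all tested) had both below Control. Counts of list members that ended beyond Control have 1743 of 5315 rises and 1217 of 3947 falls as their background. Lists share members, so their counts are not independent. For example, Etv4 and Spry4 are in the formative and ERK lists, Slc7a11 in the ATF4 and NRF2 lists, and Ddit4 in the ATF4 and p53 lists.

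**Figure D2:**
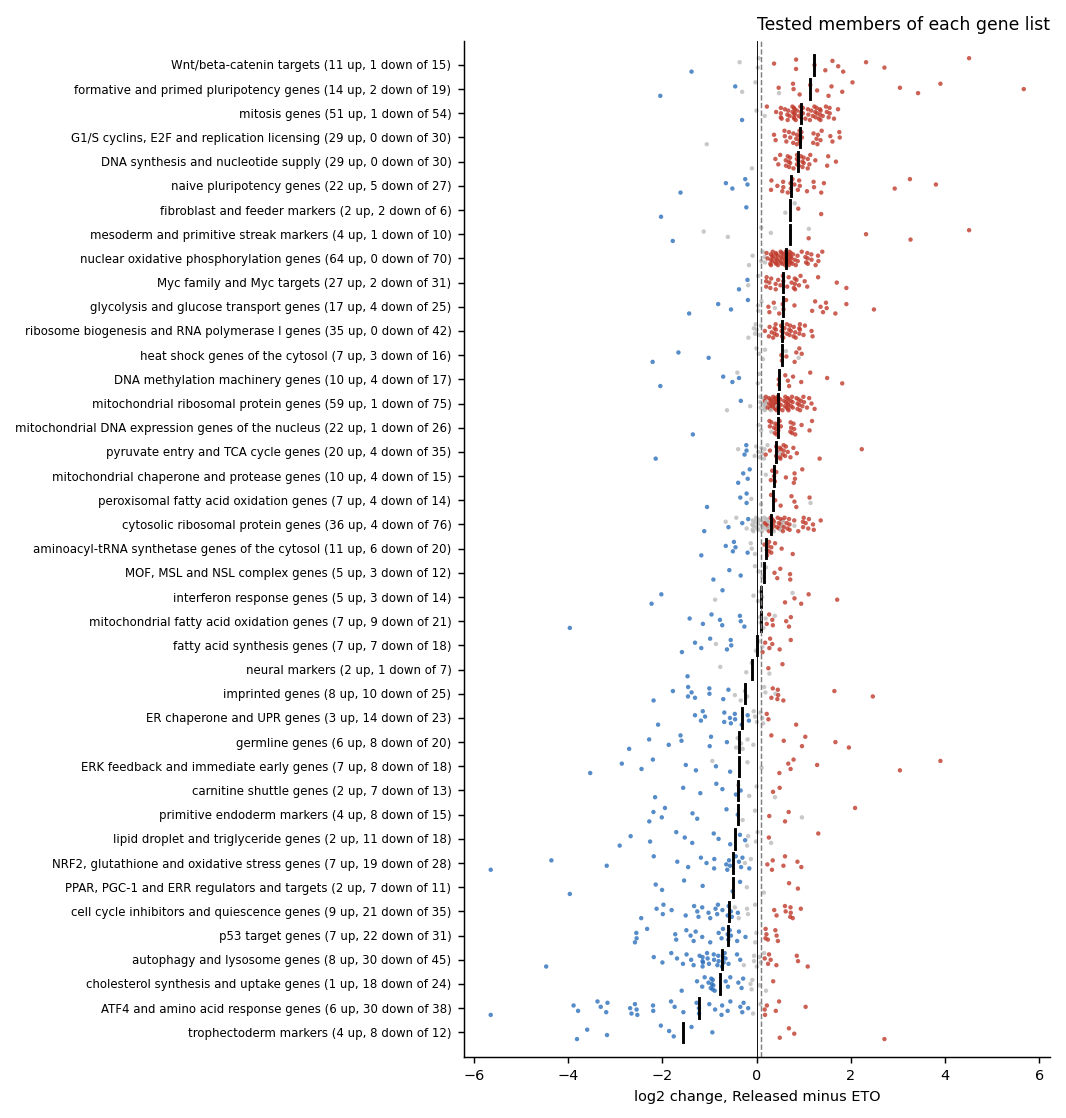
Log2 change of each tested member (dots) of the gene lists with at least 5 tested members, Released minus ETO: red rose, blue fell, grey was not called, the black bar is the list's median and the dashed line the median of all tested genes (0.10). Lists are ordered by median, from Wnt/beta-catenin targets (1.23) to trophectoderm markers (-1.57).

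Among single genes with established names, with a mean of at least 50 normalised counts in the higher group and with no overlap between the ETO and Released libraries, the 12 largest rises ran from a log2 change of 3.40 for Ntrk3 to 5.67 for Lefty2. Lefty2, a secreted inhibitor of Nodal signalling (chromosome 1, 180893108 to 180899107; RefSeq, mm10), measured 10.9 and 5.81 normalised counts in ETO, 461 and 451 in Released and 761 and 737 in Control. Its log2 change was 5.67 (SE 0.21, adjusted p = 1.24e-11), and the Released values, far above those of ETO, stayed under Control. T, the mesoderm factor Brachyury (chromosome 17, 8434423 to 8442496), went from 7.91 and 7.47 to 213 and 182, with 172 and 193 in Control (log2 change 4.51, SE 0.32, adjusted p = 1.34e-08). Pou2f3, a POU-domain transcription factor, measured 47.4 and 49.0 in ETO and 749.9 and 749 in Released against 779 and 817 in Control (log2 change 3.93, SE 0.085, adjusted p = 6.06e-14). For T the Released libraries overlapped Control, for Pou2f3 they lay just under it, and in both genes the ETO libraries lay far below.

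Spry4, a feedback inhibitor of receptor tyrosine kinase signalling, measured 6.92 and 9.96 normalised counts in ETO, 163 and 117 in Released and 70.4 and 49.8 in Control (log2 change 3.90, SE 0.28, adjusted p = 1.53e-08). Aire, known as the regulator of self-antigen expression in the thymus, measured 11.9 and 9.96 in ETO, 152 and 156 in Released and 55.0 and 67.5 in Control (log2 change 3.71, SE 0.26, adjusted p = 1.28e-08). For both, the Released libraries were the highest of the 3 groups with no overlap. Of the 12 largest rises, Lefty1 (log2 change 3.43), also an inhibitor of Nodal, and Lin28a (3.80), which binds let-7 precursors, ended below Control. Lefty1 measured 4.94 and 4.15 normalised counts in ETO, 62.0 and 55.1 in Released and 269.7 and 255 in Control. Lin28a measured 47.4 and 63.9 in ETO, 764 and 800.3 in Released and 1296 and 1344 in Control. Further rises among them were of the homeobox genes Tlx2 (log2 change 3.82) and Nkx1-2 (3.73), of Ifitm7 (3.55) and of Ntrk3 (3.40), the receptor of neurotrophin 3.

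The 12 largest falls within the same limits were of genes with at most 30.1 normalised counts in any Released or Control library, a value reached by Ubap1l in Control. Cox6a2, the heart and muscle form of a cytochrome c oxidase subunit (chromosome 7, 128205435 to 128206366), measured 233 and 264 normalised counts in ETO, 2.75 and 1.17 in Released and was listed at 0 in both Control libraries. Car6, a secreted carbonic anhydrase, measured 192 and 235 in ETO, 0 and 5.86 in Released and 1.10 and 1.04 in Control. At least 1 Released library of each gene was at or under the limit of 3 reads, so the fitted log2 changes (-6.45 and -6.35) depend on the added count of 1 and no fold is given.

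Slc7a11, the cystine transporter subunit xCT (chromosome 3, 50364936 to 50499087), measured 1083 and 1157 normalised counts in ETO, 20.7 and 22.3 in Released and 11.01 and 16.6 in Control (log2 change -5.64, SE 0.23, adjusted p = 3.19e-11). Ubap1l measured 677 and 749.7 in ETO, 19.97 and 21.1 in Released and 20.9 and 30.1 in Control (log2 change -5.05, SE 0.15, adjusted p = 2.15e-12), so that its Released libraries were as low as Control or lower. Timp3, an inhibitor of metalloproteinases, measured 612 and 669 in ETO, 26.9 and 22.3 in Released and 8.81 and 13.5 in Control (log2 change -4.65, SE 0.34, adjusted p = 1.87e-08), and Adh7, an alcohol dehydrogenase that oxidises retinol, 316 and 299 in ETO, 10.3 and 14.1 in Released and 1.10 and 1.04 in Control (log2 change -4.56, SE 0.52, adjusted p = 2.12e-06). These 2 ended above Control in both Released libraries. Capn12 (log2 change -5.76), Inhbe (-4.93), Sox8 (-4.73), Krt17 (-4.61) and Osbpl6 (-4.59) were also among the 12 largest falls, and for Capn12, Inhbe and Sox8 a Released library was again at or under the limit of 3 reads.

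The cell cycle genes rose almost without exception. Of 30 tested genes of G1/S cyclins, E2F factors and replication licensing, 29 rose and 0 fell, with a median log2 change of 0.91, and of 30 genes of DNA synthesis and nucleotide supply 29 rose and 0 fell (median 0.87). Of 54 mitosis genes, 51 rose and 1 fell (median 0.94). Of all tested genes 33.1% rose. In bulk RNA, fewer cycling cells and less cell cycle RNA per cell cannot be told apart.

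Promoter stretches of 3 of the genes that rose show the short sequences these gene groups are known for. Ccnb2 is the mitosis gene with the smallest adjusted p among those whose promoter holds the cell cycle homology region (CHR), and Cdc6 and Uhrf1 are the corresponding members of the G1/S and DNA synthesis lists with an E2F motif. The sequences are RefSeq's, GRCm38.p6, written 5′ to 3′ on the gene's strand, and capitals mark the motif, on the printed strand for Ccnb2 and Uhrf1 and on the other strand for Cdc6. The motif begins 167, 138 and 185 bases before the annotated start used, of which a gene can have several. For Cdc6 and Uhrf1 that start and the stretch lie inside the gene's RefSeq span (98907709 to 98923942 and 56303337 to 56323486). The stretches are chr9:70421691-70421746 (minus strand), chr11:98907988-98908045 (plus strand) and chr17:56304103-56304160 (plus strand).
Ccnb2: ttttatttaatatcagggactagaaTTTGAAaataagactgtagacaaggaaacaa
Cdc6: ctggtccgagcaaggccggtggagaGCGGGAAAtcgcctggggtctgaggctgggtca
Uhrf1: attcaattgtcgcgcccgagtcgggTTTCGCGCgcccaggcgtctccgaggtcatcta

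Across the lists, the CHR letters TTTGAA stood in 38.8% of the mitosis promoters (19 of 49), against 16.0% of all 32851 RefSeq promoters and 10.7% of those of tested genes. The search took the 250 bases before the start on both strands. CCAAT stood in 73.5% of the mitosis promoters, 69.2% of the G1/S promoters and 33.8% of all promoters. Any of the 4 E2F forms TTTGGCGC, TTTCGCGC, TTTCCCGC and TTTGCCGC stood in 38.5% of the G1/S promoters (10 of 26), 10% of the DNA synthesis promoters (3 of 30) and 1.86% of all. In the promoters of all genes that rose at least 2-fold the E2F share was 3.08%, against 3.18% of those of tested genes. The CHR share there was 14.6%. A match describes the letters only. The promoter table matched 45 of the 54 mitosis genes, 22 of 30 G1/S genes and 25 of 30 DNA synthesis genes.

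At the G1/S boundary, Ccnd1, the D-type cyclin that passes mitogen signals to the cycle, measured 1224 and 1349 normalised counts in ETO, 3845 and 3995 in Released and 4869 and 4679.9 in Control (log2 change 1.61, SE 0.065, adjusted p = 3.43e-11). Ccne1, the cyclin that drives entry into S phase, measured 454 and 449 in ETO, 1340.1 and 1332 in Released and 1423 and 1418 in Control (log2 change 1.56, SE 0.074, adjusted p = 1.72e-10). Cdc6, which loads the replicative helicase, measured 257 and 291 in ETO, 905 and 955 in Released and 907 and 909 in Control (log2 change 1.76, SE 0.083, adjusted p = 1.72e-10). The mean in Released was 3.05 times that in ETO for Ccnd1, 2.96 times for Ccne1 and 3.40 times for Cdc6, and the Released libraries of Ccnd1 and Ccne1 were still below Control. Ccnd2, the 1 member not called, had a log2 change of -1.06 (adjusted p = 0.0594) and was called as falling under 7 alternatives, among them 3 of the other scalings and the fit on the ETO and Released libraries alone, while its sign was positive and not called in the FPKM table.

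In S phase genes, Uhrf1, which guides maintenance DNA methylation to new DNA, measured 2081 and 2262 normalised counts in ETO and 6042 and 6199.9 in Released, with 6182 and 6234 in Control (log2 change 1.496, SE 0.055, adjusted p = 1.24e-11). Rrm2, the regulated subunit of ribonucleotide reductase, measured 1427 and 1375 in ETO, 3044 and 3041 in Released and 3388 and 3375 in Control (log2 change 1.12, SE 0.055, adjusted p = 2.53e-10). Tk1, the thymidine kinase of cycling cells, rose by 1.52 and Lig1, the ligase that joins Okazaki fragments, by 1.14 on the log2 scale. The ETO libraries were the lowest of the 3 groups in all 4 genes. Prim2, a primase subunit, was the 1 member not called (log2 change -0.10, adjusted p = 0.322), and total signal and its reduced form called it as falling.

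Among mitosis genes, Kif20a, a kinesin of the central spindle, measured 1787 and 1779 normalised counts in ETO, 5238 and 5185 in Released and 5056 and 4888 in Control (log2 change 1.55, SE 0.057, adjusted p = 1.42e-11). Ccnb2, a partner of CDK1, measured 409 and 438 in ETO, 1432 and 1377 in Released and 1504 and 1515 in Control (log2 change 1.73, SE 0.067, adjusted p = 2.05e-11). Ube2c, the ubiquitin-conjugating enzyme of the anaphase-promoting complex, measured 785 and 795 in ETO, 2470.2 and 2461 in Released and 2565 and 2369 in Control (log2 change 1.64, SE 0.066, adjusted p = 2.94e-11). For Kif20a both Released libraries exceeded both Control libraries, and for Ube2c the 2 groups overlapped. Mki67, the proliferation marker, went from 1027 and 1287 to 2715 and 2876 (log2 change 1.28, SE 0.10, adjusted p = 4.89e-08). Lin54, a DNA-binding subunit of the complex that controls mitosis genes, was the 1 that fell (log2 change -0.31, adjusted p = 0.0112). It was not called in the FPKM table, without the intensity trend, or without ETO replicate 2 or Released replicate 1.

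Inhibitors of the cycle and genes of quiescence moved the other way. Of 35 tested, 21 fell and 9 rose (median -0.59). Klf6, a growth-restraining zinc finger factor, measured 6279 and 6103 normalised counts in ETO, 1453 and 1389 in Released and 1585 and 1502 in Control (log2 change -2.12, SE 0.077, adjusted p = 1.24e-11). Gadd45a, a growth arrest gene of the DNA damage response, measured 582 and 578 in ETO, 101 and 111 in Released and 86.5 and 66.9 in Control (log2 change -2.45, SE 0.13, adjusted p = 8.02e-10). Irs2, the insulin receptor substrate that FOXO factors raise, measured 838 and 979.7 in ETO, 220.4 and 234 in Released and 227 and 224 in Control (log2 change -1.99, SE 0.12, adjusted p = 2.62e-09). Both Released libraries lay below Control for Klf6 and above it for Gadd45a, while for Irs2 the groups overlapped. Gas6, a growth arrest gene that encodes a ligand of TAM receptors, fell by 1.80 on the log2 scale and remained above Control (274 and 292 against 127 and 142).

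**Figure D3:**
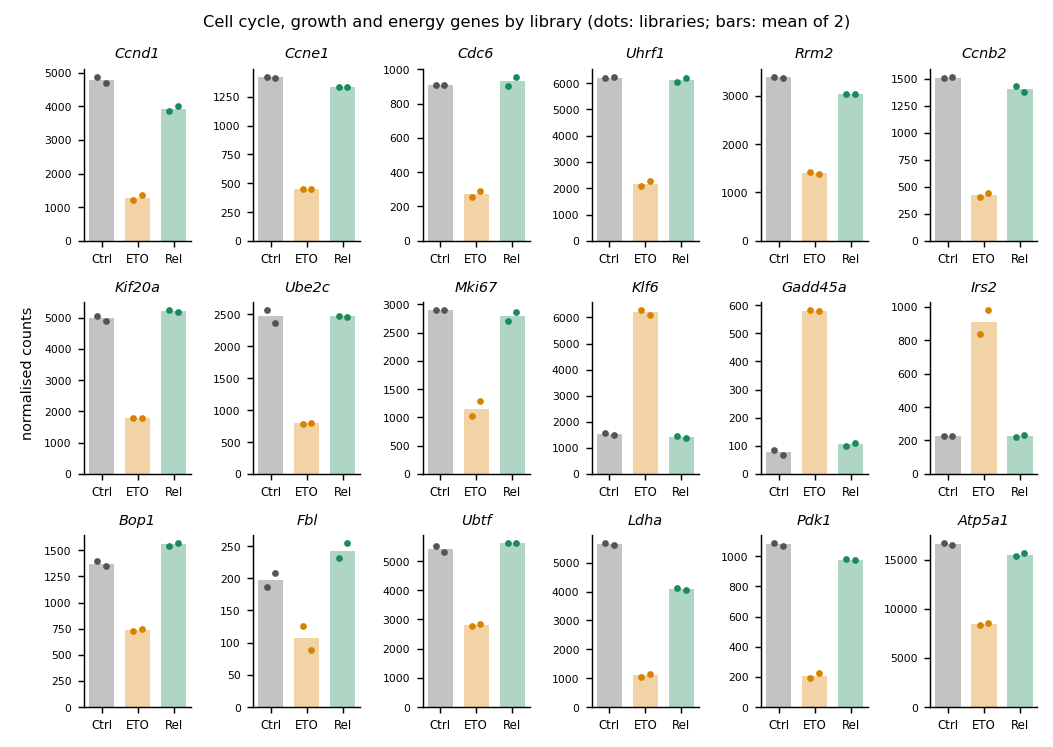
Normalised counts (vertical axes, each starting at 0) of 18 genes of the cell cycle, growth and energy metabolism in the Control, ETO and Released (Rel) libraries: dots are libraries, bars the mean of 2. Klf6, Gadd45a and Irs2 are highest in ETO, and in the other 15 genes both ETO libraries are the lowest.

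Genes of biosynthesis rose with the cycle. Of 31 Myc family members and targets 27 rose and 2 fell (median 0.57), and of 42 genes of ribosome biogenesis and RNA polymerase I 35 rose and 0 fell (median 0.55). Total signal gave 21 and 31 rises in these lists, with 4 falls in the second. The falls of the Myc list, Mlx (-0.37) and Dkc1 (-0.19) on the log2 scale, numbered 1 without ETO replicate 1 or ETO replicate 2 and 0 without Released replicate 2. Myc itself, the growth-promoting factor, measured 207 and 235 normalised counts in ETO, 179 and 211 in Released and 141 and 156 in Control. It was not called (log2 change -0.18, SE 0.37, adjusted p = 0.699), and its ETO and Released libraries overlapped. Bop1, needed for the large ribosomal subunit, measured 730.5 and 748 in ETO, 1546 and 1568 in Released and 1399 and 1348 in Control (log2 change 1.07, SE 0.078, adjusted p = 1.51e-08). Ubtf, which keeps ribosomal RNA genes open to RNA polymerase I, measured 2777 and 2851 in ETO, 5604 and 5609 in Released and 5529 and 5298 in Control (log2 change 0.99, SE 0.057, adjusted p = 1.28e-09). Fbl, the methyltransferase fibrillarin, rose by 1.19 on the log2 scale. Shmt1, of 1-carbon metabolism, rose by 1.30 on the log2 scale, Cct3, a subunit of the cytosolic chaperonin, by 0.81, and Nop10, of the pseudouridylation complex, by 1.16. Of the 35 ribosome biogenesis genes that rose, 14 ended above both Control libraries, against 1743 of all 5315 genes that rose.

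The ribosomal proteins themselves changed less, and 47.4% of their rows rose. Of all tested genes 33.1% rose, and of those above a mean of 1000 normalised counts 50.8%. Of 76 tested rows, 36 rose, 4 fell and 36 were not called, with a median log2 change of 0.30 (0.17 by total signal), and the rises numbered 21 in the FPKM table. Their summed level was 168756 and 169945 normalised counts in ETO, 176926 and 177828 in Released and 198452 and 195601 in Control. Both Released sums lay between those of ETO and Control, closer to ETO. Rpl8 went from 12209 and 12706 to 17452 and 17052 (log2 change 0.47, SE 0.049, adjusted p = 9.07e-07) and Rpl31 from 259 and 225 to 495 and 464 (log2 change 0.98, SE 0.11, adjusted p = 1.42e-06). Many ribosomal protein genes have pseudogene copies, so their counts are uncertain.

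Genes of respiration rose in both genomes. The row of mt-Cytb, cytochrome b of complex III, measured 12206 and 9440.4 normalised counts in ETO, 70223 and 74431 in Released and 68544 and 69750.2 in Control (log2 change 2.75, SE 0.14, adjusted p = 2.93e-06). The row that merges mt-Nd1, mt-Nd2 and both mitochondrial ribosomal RNAs measured 24642 and 19556 in ETO, 127206 and 133506 in Released and 126778 and 124984 in Control (log2 change 2.57, SE 0.15, adjusted p = 1.58e-05). The mean in Released was 6.68 times that in ETO in the first row and 5.90 times in the second, and both Released libraries exceeded both Control libraries. In a fit without Released replicate 1, where they were listed at 0, the merged row that spans mt-Atp6 and mt-Nd5 had a log2 change of 2.61 (SE 0.16, adjusted p = 1.74e-05) and mt-Nd6 of 2.61 (SE 0.22, adjusted p = 9.81e-05). The mitochondrial rows held 0.761% and 0.588% of the ETO signal, 3.71% of that of Released replicate 2, and 3.39% and 3.34% of Control.

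In the nuclear part of oxidative phosphorylation 64 of 70 genes rose and 0 fell (median 0.61), among them genes of complexes I, III, IV and V. Atp5a1, the alpha subunit of ATP synthase, measured 8367 and 8603 normalised counts in ETO, 15348 and 15706 in Released and 16679 and 16552 in Control (log2 change 0.87, SE 0.044, adjusted p = 3.44e-10). Cox6b1, a subunit of complex IV, measured 1309.7 and 1306 in ETO, 2754 and 2609.5 in Released and 2759.6 and 2803 in Control (log2 change 1.04, SE 0.060, adjusted p = 1.31e-09). The ETO libraries were the lowest in both genes, and the Released libraries lay below both Control libraries. Those not called were Ndufa8, Ndufb11, Ndufs5, Ndufs7, Uqcrq and Cycs, with log2 changes from -0.16 for Ndufs5 to 0.18 for Ndufs7.

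The machinery that expresses mitochondrial DNA moved alike. Of 26 nuclear genes for mitochondrial DNA replication, transcription and RNA processing 22 rose and 1 fell (median 0.45), and of 75 mitochondrial ribosomal protein genes 59 rose and 1 fell (median 0.45). Ssbp1, which coats single-stranded mitochondrial DNA, measured 247 and 234 normalised counts in ETO and 512 and 538 in Released (log2 change 1.12, SE 0.090, adjusted p = 4.27e-08). Twnk, the mitochondrial helicase Twinkle, measured 536 and 556 in ETO and 1021 and 1096 in Released, with 930.1 and 919 in Control (log2 change 0.95, SE 0.082, adjusted p = 9.51e-08). Mrps12, of the small mitochondrial ribosomal subunit, measured 276 and 279.8 in ETO and 628 and 678 in Released, with 557 and 569.8 in Control (log2 change 1.23, SE 0.087, adjusted p = 1.1e-08). Twnk and Mrps12 in Released exceeded both Control libraries. So did 21 of the 59 mitochondrial ribosomal protein genes that rose, near the share among all genes that rose (1743 of 5315). The fall was that of Mrps6 (-0.34 on the log2 scale, in a row with Slc5a3), and falls numbered 2 without Released replicate 1 and 0 without ETO replicate 2 or Released replicate 2. Top1mt, the mitochondrial topoisomerase, was the 1 that fell among the expression genes (log2 change -1.35, adjusted p = 1.43e-05).

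Among 15 mitochondrial chaperone and protease genes, 10 rose and 4 fell (median 0.37, 0.23 by total signal). Trap1, the mitochondrial HSP90, measured 1790.0 and 1879.8 normalised counts in ETO and 3485 and 3696 in Released (log2 change 0.97, SE 0.061, adjusted p = 3.23e-09), and Hspd1, the chaperonin HSP60, 2178 and 2139 in ETO and 3715 and 3744 in Released (log2 change 0.79, SE 0.068, adjusted p = 9.89e-08). The falls were those of Hspa9 (log2 change -0.39), Dnaja3 (-0.19, in a row with Vasn), Clpx (-0.28) and Lonp1 (-0.15), and 1 or 2 of the 4 were called with any 1 ETO or Released library left out.

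Glycolysis rose as well. Of 25 tested genes of glycolysis and glucose transport 17 rose and 4 fell (median 0.55). Ldha, which turns pyruvate into lactate, measured 1031 and 1158 normalised counts in ETO, 4116 and 4067 in Released and 5676 and 5631 in Control (log2 change 1.90, SE 0.065, adjusted p = 6.83e-12). Tpi1, triosephosphate isomerase, measured 821 and 729 in ETO, 2151 and 2141 in Released and 3122 and 3103 in Control (log2 change 1.47, SE 0.069, adjusted p = 1.7e-10). Pfkl, a phosphofructokinase, measured 432 and 522 in ETO, 1509 and 1519 in Released and 1649 and 1748 in Control (log2 change 1.67, SE 0.10, adjusted p = 1.32e-09). All 3 were lowest in ETO and stayed below Control in both Released libraries, as the summed level of the list did (ETO 47161 and 49312, Released 71686 and 71309, Control 88503 and 88313). The falls were of Slc2a1 (log2 change -0.19), Pfkfb3 (-0.54), Pfkfb4 (-0.82) and Eno2 (-1.43), 2 of which were called in the FPKM table. The call of Slc2a1, the main glucose transporter, was lost without ETO replicate 2 or either Released replicate.

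Of 35 genes of pyruvate entry and the TCA cycle, 20 rose (57.1%) and 4 fell (median 0.42). Of all tested genes above a mean of 1000 normalised counts, 50.8% rose. The kinases that switch off pyruvate dehydrogenase moved apart. Pdk1 measured 193 and 223 normalised counts in ETO, 983 and 971 in Released and 1085 and 1070.0 in Control (log2 change 2.23, SE 0.093, adjusted p = 4.96e-11). Pdk4, the form raised by fasting and fatty acids, measured 384 and 417 in ETO, 94.3 and 85.5 in Released and 103 and 107 in Control (log2 change -2.14, SE 0.10, adjusted p = 1.72e-10). The mean in Released was 4.70 times that in ETO for Pdk1 and 0.225 times for Pdk4, with no overlap in either gene. Fh1, fumarase, rose by 0.85 on the log2 scale and Idh1, the cytosolic isocitrate dehydrogenase, by 0.72.

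The genes of the inhibited step fell. Of 13 carnitine shuttle genes, 7 fell and 2 rose (median -0.39). Cpt1a, the CPT1 form of liver and many tissues (chromosome 19, 3322326 to 3385735), measured 4365 and 4392 normalised counts in ETO, 1898 and 1926 in Released and 2297 and 2153 in Control (log2 change -1.19, SE 0.057, adjusted p = 1.98e-10). Cpt1c, the brain form (chromosome 7, 44958483 to 44974880), measured 1689.9 and 1755 in ETO, 1056 and 1024 in Released and 740.4 and 701 in Control (log2 change -0.73, SE 0.077, adjusted p = 9.84e-07). The row that merges Cpt1b, the muscle form, with the overlapping gene Chkb measured 1821 and 1844 in ETO, 406 and 415 in Released and 396 and 453 in Control (log2 change -2.15, SE 0.082, adjusted p = 1.73e-11), and reads of the 2 genes cannot be told apart. Cpt1a ended below both Control libraries, Cpt1c above both, and the merged row within their range.

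Per length, Cpt1a was at 71.6 and 71.9 FPKM in ETO and 31.1 and 31.5 in Released, and Cpt1c at 54.1 and 61.8 and 37.0 and 34.8. Cpt1a was thus the higher of the 2 per length in ETO and the lower of them in Released. Cpt2, the enzyme of the inner membrane that completes the shuttle (chromosome 4, 107903982 to 107923589), measured 438 and 449 normalised counts in ETO, 236 and 254 in Released and 210.2 and 189 in Control (log2 change -0.86, SE 0.11, adjusted p = 8.84e-06). Acsl5, an acyl-CoA synthetase, measured 279 and 264 in ETO, 101 and 83.2 in Released and 183 and 193 in Control (log2 change -1.56, SE 0.12, adjusted p = 2.28e-08), with both Released libraries below both Control libraries. The transporter Slc25a20 fell by 0.44, and Crat, carnitine acetyltransferase, fell by 0.34, while Crot (log2 change 0.35, in a row with Gm27941) and Acsl1 (0.49) rose, of which 0 were called in the FPKM table and 1 without Released replicate 1. The call of Crat was lost in the FPKM table and without Released replicate 2.

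The enzymes of beta-oxidation were divided. Of 21 mitochondrial fatty acid oxidation genes, 7 rose (33.3%) and 9 fell (42.9%), against 33.1% and 24.6% of all tested genes. The median of 0.084 turned to -0.050 by total signal and -0.022 by its reduced form, -0.014 by median-of-ratios factors and -0.0067 without Released replicate 1. It was 0.15 without ETO replicate 2 and 0.17 without Released replicate 2. The rises numbered 3 by total signal and 4 by its reduced form. Acadl, the long-chain acyl-CoA dehydrogenase, measured 543 and 529 normalised counts in ETO, 193 and 206 in Released and 194 and 177 in Control (log2 change -1.42, SE 0.10, adjusted p = 9.76e-09). Acadm, the medium-chain form, measured 1315 and 1341 in ETO, 2112 and 2163 in Released and 2007 and 2104 in Control (log2 change 0.69, SE 0.068, adjusted p = 5.04e-07). These 2 enzymes of neighbouring chain lengths thus moved in opposite directions. The merged row of the thioesterases Acot1 and Acot2 fell the most, from 565 and 573 to 37.2 and 34.0 (log2 change -3.96, SE 0.17, adjusted p = 4.98e-11). In the peroxisomal pathway 7 of 14 rose and 4 fell (median 0.35, 0.22 by total signal). The 4 falls numbered 1 in the FPKM table and 2 without ETO replicate 1 or either Released replicate.

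Genes that respond to fatty acids and that store them fell. Of 11 tested PPAR, PGC-1 and ERR regulators and targets 7 fell and 2 rose (median -0.51), and of 18 lipid droplet and triglyceride genes 11 fell and 2 rose (median -0.46, -0.30 with a minimum of 50). Plin2, the coat protein of lipid droplets (chromosome 4, 86626910 to 86670217), measured 3956 and 4117 normalised counts in ETO, 545 and 531 in Released and 582 and 591 in Control (log2 change -2.91, SE 0.065, adjusted p = 8.64e-14). Fabp3, a fatty acid binding protein, measured 1337 and 1281 in ETO, 453 and 447 in Released and 638 and 721 in Control (log2 change -1.54, SE 0.073, adjusted p = 1.8e-10). Ppard, the PPAR form of most tissues, measured 1468 and 1528 in ETO, 699.6 and 654 in Released and 538 and 573 in Control (log2 change -1.15, SE 0.085, adjusted p = 2.01e-08). All 3 were highest in ETO, and Released ended below Control for Plin2 and Fabp3 and above it for Ppard. The rises numbered 1 in the droplet list with any 1 ETO or Released library left out, and 1 in the PPAR list without ETO replicate 1. Lpin1, a phosphatidate phosphatase, fell by 1.37 on the log2 scale, while Pnpla3, a lipase and acyltransferase of droplets, rose from 149 and 163 to 368 and 408, above Control (239 and 244).

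**Figure D4:**
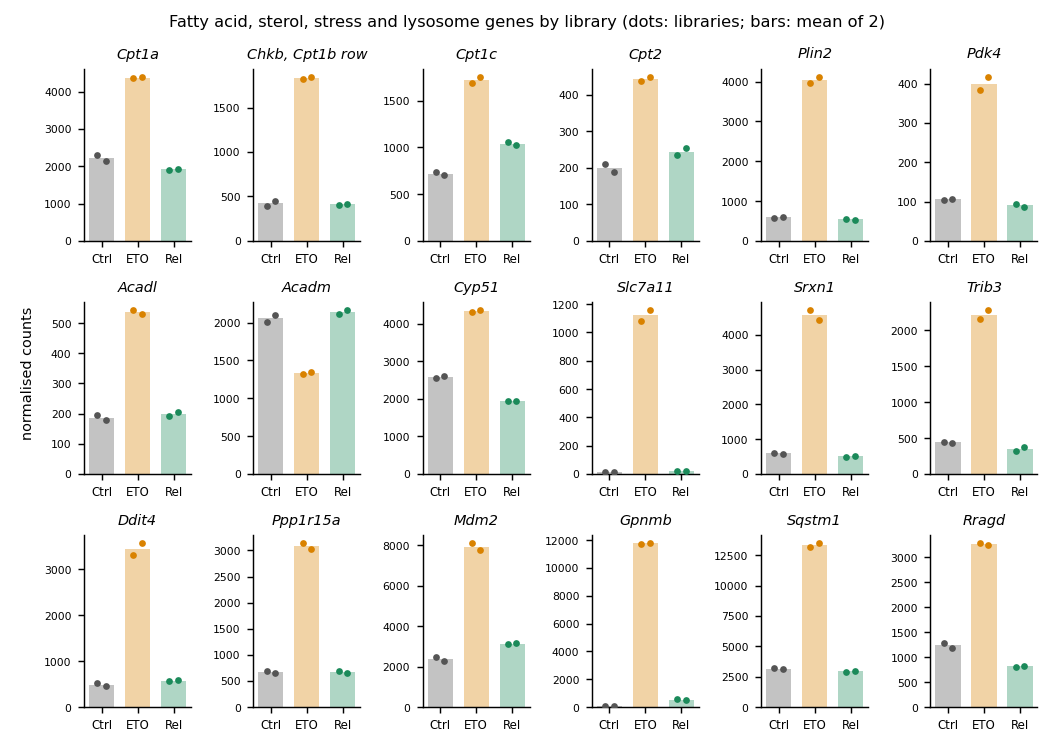
Normalised counts (vertical axes, each starting at 0) of 18 genes of fatty acid, sterol, stress and lysosome pathways in the Control, ETO and Released (Rel) libraries: dots are libraries, bars the mean of 2. All genes but Acadm are highest in ETO, and Cyp51 and Rragd in Released lie below Control.

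Genes of sterol synthesis fell, most of them to below Control. Of 24 tested genes of cholesterol synthesis and uptake, 18 fell and 1 rose (median -0.77). In 16 of the 18 that fell both Released libraries lay below both Control libraries, against 1217 of all 3947 genes that fell. Cyp51, which removes the 14-alpha methyl group of lanosterol, measured 4314 and 4357 normalised counts in ETO, 1946 and 1947 in Released and 2563 and 2605 in Control (log2 change -1.15, SE 0.068, adjusted p = 1.62e-09). Msmo1, a methylsterol oxidase, measured 4229 and 4412 in ETO, 2087 and 2168 in Released and 2483 and 2544 in Control (log2 change -1.02, SE 0.066, adjusted p = 4.29e-09). The 1 rise, of the isomerase Ebp (0.35 on the log2 scale), was lost without Released replicate 1. For Cyp51 and Msmo1 the order was ETO above Control above Released, with no overlap of neighbours. CCAAT stood in 78.9% of the 19 promoters matched to 16 of the 24 genes, and the sterol element TCACNCCAC in 1 of them, against 33.8% and 1.05% of all promoters. The summed level of the list was 60379.6 and 62525 in ETO, 37832 and 37820.5 in Released and 44712 and 44098 in Control.

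Fatty acid synthesis showed no common direction, with 7 rises and 7 falls among 18 genes and a median of 0.015 that 4 of the scalings, the FPKM table and leaving out ETO replicate 1 made negative. With 1 ETO or Released library left out it ran from -0.10 to 0.12. The rises numbered 2 by total signal, 3 without ETO replicate 1 and 4 without Released replicate 2. Fads1, a desaturase of polyunsaturated fatty acids, measured 3904 and 3948 normalised counts in ETO, 1955 and 2007 in Released and 2803 and 2648 in Control (log2 change -0.99, SE 0.063, adjusted p = 3.6e-09), and Scd1, which makes monounsaturated fatty acids, measured 8736 and 9162 in ETO, 6164 and 6154 in Released and 8125 and 8059 in Control (log2 change -0.54, SE 0.053, adjusted p = 4.01e-07). Both Released libraries lay below Control in both genes. Elovl7, an elongase, fell by 1.58, and Acss2, the acetyl-CoA synthetase of the cytosol, fell by 1.31 on the log2 scale.

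Genes of the response to amino acid shortage fell. Of 38 tested ATF4 and amino acid response genes, 30 fell and 6 rose, the lowest median (-1.22) of any list but the trophectoderm markers. Ddit4, an inhibitor of mTORC1, measured 3304 and 3564 normalised counts in ETO, 561 and 585 in Released and 518 and 461 in Control (log2 change -2.58, SE 0.077, adjusted p = 1.82e-12). Trib3, a pseudokinase, measured 2153 and 2282 in ETO, 317 and 374 in Released and 446 and 433 in Control (log2 change -2.68, SE 0.10, adjusted p = 1.06e-11). Ppp1r15a, which directs dephosphorylation of eIF2-alpha, measured 3136 and 3026 in ETO, 699 and 643 in Released and 687 and 655 in Control (log2 change -2.20, SE 0.076, adjusted p = 7.24e-12). All 3 were highest in ETO. Slc1a4, a transporter of neutral amino acids, measured 1672 and 1701 in ETO, 282 and 300.0 in Released and 282 and 247 in Control (log2 change -2.53, SE 0.086, adjusted p = 6.68e-12). The mean in Released was between 0.156 (Trib3) and 0.218 (Ppp1r15a) times that in ETO in these 4 genes. Trib3 ended below both Control libraries, as 14 of the 30 that fell did, against 1217 of all 3947 genes that fell. The 6 that rose included Cbs (log2 change 1.04), Cth (0.48) and Asns (0.41), and the rises numbered 3 by 3 of the scalings, in the FPKM table and without ETO replicate 2 or either Released replicate.

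Slc7a11 is the gene of this list with the smallest adjusted p among eligible promoters with a C/EBP-ATF response element (CARE). Eligibility was as for Ccnb2. The stretch shown is chr3:50443628-50443685 (minus strand, RefSeq, GRCm38.p6). It lies before an annotated start inside the gene's RefSeq span (50364936 to 50499087), not before the outer end of that span. The capitals mark 2 matches of TGATGNAA, the first on the gene's strand and the second on the other.
Slc7a11: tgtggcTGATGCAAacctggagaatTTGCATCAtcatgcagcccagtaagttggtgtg
The letters TGATGNAA stood in 23.3% of the promoters of the ATF4 list (10 of 43, from 34 of 38 genes), against 3.45% of all promoters and 1.98% of those of tested genes. In the promoters of all genes that fell at least 2-fold the share was 3.59%.

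The cytosolic tRNA synthetases, some of which ATF4 raises, were mixed. Of 20 genes 11 rose and 6 fell (median 0.19, 0.058 to 0.094 by 3 other scalings), and the rises numbered 5 to 6 by 3 other scalings, in the FPKM table and without Released replicate 2. Sars, of seryl-tRNA, measured 5139.9 and 5151 normalised counts in ETO, 2323 and 2237 in Released and 2636 and 2744 in Control (log2 change -1.17, SE 0.056, adjusted p = 1.74e-10). Kars, of lysyl-tRNA, measured 2183 and 2103 in ETO, 3579 and 3707 in Released and 3699 and 3543 in Control (log2 change 0.77, SE 0.058, adjusted p = 2.38e-08). The ETO libraries were the highest for Sars and the lowest for Kars. Gars fell by 0.50 on the log2 scale and Wars fell by 0.66.

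In the endoplasmic reticulum, 14 of 23 chaperone and unfolded protein response genes fell and 3 rose (median -0.32), with 9 falls in the FPKM table. Ero1l, the oxidase that drives disulphide formation, measured 1621 and 1548 normalised counts in ETO, 362 and 381 in Released and 565 and 556 in Control (log2 change -2.09, SE 0.090, adjusted p = 6.35e-11). Sel1l, of the degradation complex for misfolded proteins, measured 2539 and 2678 in ETO, 1154 and 1144 in Released and 1130.5 and 1108 in Control (log2 change -1.18, SE 0.064, adjusted p = 6.6e-10). Ero1l ended below both Control libraries and Sel1l above both. The cytosolic heat shock genes were divided, with 7 of 16 rising and 3 falling (median 0.53, 0.30 without ETO replicate 1, 0.33 in the FPKM table and 0.35 with a pseudocount of 5 or a minimum of 50). Stip1, a co-chaperone of HSP70 and HSP90, rose from 2829 and 2860.3 to 5495 and 5541 (log2 change 0.96, SE 0.051, adjusted p = 6.6e-10), and Hspb8, a small heat shock protein of chaperone-assisted autophagy, fell from 4788 and 4775 to 1419.9 and 1612 (log2 change -1.66, SE 0.069, adjusted p = 4.34e-11).

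Of 28 tested genes of the oxidative stress and NRF2 list, 19 fell and 7 rose (median -0.50). Srxn1, sulfiredoxin, measured 4714 and 4419.6 normalised counts in ETO, 494 and 511 in Released and 609.8 and 582 in Control (log2 change -3.18, SE 0.078, adjusted p = 1.99e-13). Hmox1, haem oxygenase 1, measured 2898 and 2960.0 in ETO, 908 and 914 in Released and 879.5 and 835 in Control (log2 change -1.68, SE 0.078, adjusted p = 1.3e-10). Srxn1 fell to below both Control libraries, and Hmox1 stayed above both. The rises were of peroxide and superoxide enzymes and others, Gpx1 (log2 change 0.95), Gsta4 (0.87), Prdx1 (0.60), Sod2 (0.57), Txn1 (0.34), G6pdx (0.32) and Prdx3 (0.23), the last a call lost by 3 of the scalings and without ETO replicate 1 or Released replicate 1.

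Of 31 tested p53 target genes 22 fell and 7 rose (median -0.62), with 3 rises by 3 of the other scalings, in the FPKM table and without ETO replicate 1, and 4 without either Released replicate. Mdm2, the ubiquitin ligase of p53, measured 8106 and 7779.8 normalised counts in ETO, 3115 and 3172 in Released and 2461 and 2299 in Control (log2 change -1.34, SE 0.058, adjusted p = 6.83e-11). Plk2, a Polo-like kinase, measured 5681 and 5590.3 in ETO, 2034 and 2236 in Released and 1219 and 1188 in Control (log2 change -1.40, SE 0.067, adjusted p = 1.93e-10). Tnfrsf10b, a death receptor, measured 982 and 1001 in ETO, 346 and 359 in Released and 302 and 313 in Control (log2 change -1.49, SE 0.074, adjusted p = 2.9e-10). All 3 remained above both Control libraries after release. Trp53, the gene of p53 itself, rose by 0.45 on the log2 scale (adjusted p = 5.93e-05).

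Of 45 genes of autophagy and the lysosome 30 fell and 8 rose (median -0.74). Gpnmb, a glycoprotein of lysosomes and melanosomes (chromosome 6, 49036518 to 49058182), measured 11752 and 11775 normalised counts in ETO, 551 and 513 in Released and 69.3 and 75.8 in Control (log2 change -4.46, SE 0.093, adjusted p = 5.92e-14). The mean in Released was 0.0452 times that in ETO, and both Released libraries were still far above Control. Sqstm1, the autophagy receptor p62, measured 13206 and 13488 in ETO, 2878 and 3001 in Released and 3230.0 and 3114 in Control (log2 change -2.18, SE 0.062, adjusted p = 1.11e-12). Rragd, a GTPase that couples lysosomal amino acids to mTORC1, measured 3278 and 3236 in ETO, 800.2 and 828 in Released and 1280.2 and 1190.4 in Control (log2 change -1.999, SE 0.073, adjusted p = 1.24e-11). Sqstm1 and Rragd ended below both Control libraries, as 11 of the 30 that fell did, against 1217 of all 3947 genes that fell. The regulators Tfeb (log2 change 0.85), Tfe3 (0.24) and Mitf (0.88) were among the rises, which numbered 4 in the FPKM table and 5 by total signal, and the call of Tfe3 was lost by 3 of the scalings and without ETO replicate 1 or Released replicate 2. The E-box CACGTG stood in 25.6% of the promoters of this list (11 of 43, from 36 of 45 genes), 6.02% of all and 8.24% of those of tested genes. In the ribosome biogenesis promoters its share was 8.33%.

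Genes of naive pluripotency rose. Of 27 tested, 22 rose and 5 fell (median 0.73). Nanog (chromosome 6, 122707489 to 122714633) measured 4003 and 3843 normalised counts in ETO, 8980.4 and 9148 in Released and 9050.4 and 9536 in Control (log2 change 1.21, SE 0.053, adjusted p = 7.8e-11). Pou5f1, which encodes OCT4 (chromosome 17, 35506032 to 35510777), measured 4615 and 5032 in ETO, 9164 and 9032 in Released and 8266 and 8482 in Control (log2 change 0.92, SE 0.059, adjusted p = 4.26e-09). Sox2 (chromosome 3, 34649995 to 34652461) measured 2343 and 2517 in ETO, 4092 and 3948 in Released and 4379.9 and 4378 in Control (log2 change 0.73, SE 0.059, adjusted p = 4.92e-08). In ETO these 3 core factors were the lowest, and in Released Pou5f1 was above both Control libraries, Sox2 below both, and Nanog overlapped them. Per length in ETO, Pou5f1 was at 525 and 579 FPKM, Nanog at 133 and 128 and Sox2 at 84.7 and 90.9.

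Utf1, a chromatin factor of pluripotent cells, measured 93.9 and 103 normalised counts in ETO, 956 and 935 in Released and 375 and 355 in Control (log2 change 3.25, SE 0.15, adjusted p = 1.22e-10). Both Released libraries were far above both Control libraries, which in turn lay above ETO. Tcl1, a coactivator of AKT, rose from 674 and 677 to 1728 and 1767 (log2 change 1.37, SE 0.073, adjusted p = 6.07e-10). The 5 naive genes that fell were Dppa3 (log2 change -1.62), Tfap2c (-0.65), Spp1 (-0.51, in a row with Gm42793), Stat3 (-0.24) and Klf5 (-0.19), and 3 of these calls were made in the FPKM table. The call of Klf5 was also lost without ETO replicate 1 or Released replicate 1.

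Genes of formative and primed pluripotency, the states that follow the naive one, had a median of 1.14, with 14 of 19 rising and 2 falling. In 9 of these 14 rises both Released libraries exceeded both Control libraries, against 1743 of all 5315 genes that rose. Etv4, an ETS factor downstream of FGF and ERK, measured 126 and 115 normalised counts in ETO, 977 and 1010.1 in Released and 682 and 677 in Control (log2 change 3.04, SE 0.10, adjusted p = 5.05e-12). Dnmt3b, a de novo DNA methyltransferase, measured 539 and 623 in ETO, 2032 and 2052 in Released and 1777 and 1749.8 in Control (log2 change 1.82, SE 0.076, adjusted p = 4.98e-11). Both were lowest in ETO and highest in Released. The falls were Dnmt3a (log2 change -2.04) and Lin28b (-0.45, adjusted p = 0.0345), 1 of them called in the FPKM table and without ETO replicate 1, ETO replicate 2 or Released replicate 2.

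The DNA methyltransferases parted. Dnmt3a measured 732 and 805 normalised counts in ETO, 198 and 173 in Released and 165 and 189 in Control (log2 change -2.04, SE 0.11, adjusted p = 9.58e-10), while Dnmt3l, the cofactor without catalytic activity, measured 977 and 1009.6 in ETO, 2226 and 2143 in Released and 729 and 777 in Control (log2 change 1.14, SE 0.10, adjusted p = 9.61e-08). Dnmt3a in Released thus overlapped Control, and Dnmt3l lay above both other groups. Of the 17 writers, readers and erasers of DNA methylation tested, 10 were called up and 4 down (median 0.47), with 2 falls in the FPKM table. Trim28, the corepressor KAP1, rose from 11397 and 12059 to 22279.8 and 22907 (log2 change 0.95, SE 0.063, adjusted p = 5.75e-09).

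Signalling readouts of the medium also differed. GSK3 inhibition keeps beta-catenin active, and its target genes rose in 11 cases of 15 and fell in 1 (median 1.23). Axin2, a feedback inhibitor and standard target, measured 812 and 877 normalised counts in ETO, 1977 and 1976 in Released and 2341 and 2318 in Control (log2 change 1.23, SE 0.076, adjusted p = 2.83e-09). Notum, a secreted Wnt deacylase, measured 402 and 433 in ETO, 1172 and 1123 in Released and 1513 and 1398 in Control (log2 change 1.46, SE 0.088, adjusted p = 2.18e-09). Cdx1, a caudal homeobox factor, measured 75.1 and 81.4 in ETO, 384 and 405 in Released and 458 and 429 in Control (log2 change 2.32, SE 0.15, adjusted p = 5.5e-09). All 3 were lowest in ETO, and their Released libraries lay below both Control libraries. Ascl2 was the 1 that fell (log2 change -1.38, adjusted p = 0.000127).

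Of 18 ERK feedback and immediate early genes 7 rose and 8 fell (median -0.38, between -0.58 and -0.12 with any 1 ETO or Released library left out, -0.069 with no minimum and -0.71 with rows of 1 name kept apart). The rises were feedback genes of FGF and ERK signalling, Spry4 (log2 change 3.90), Etv4 (3.04), Dusp6 (1.28), Etv5 (0.78), Spred1 (0.72) and Spry2 (0.67), and Ier2 (0.48). The falls held the AP-1 genes Jun, Fos (log2 change -2.44) and Fosl1 (-1.503), whose call was lost with any 1 ETO or Released library left out. Dusp4, Dusp5, Spry1 and Phlda1 fell too, so the ERK feedback genes did not all move the same way. The call of Spry1 was lost in the FPKM table and without either ETO replicate or Released replicate 2, among other fits. Jun measured 1015 and 960.5 normalised counts in ETO, 119 and 154 in Released and 33.0 and 46.6 in Control (log2 change -2.86, SE 0.17, adjusted p = 1.35e-09). Dusp1, a phosphatase of stress kinases, measured 1970.0 and 2103 in ETO, 439 and 444 in Released and 423 and 434 in Control (log2 change -2.20, SE 0.088, adjusted p = 2.94e-11). Jun and Dusp1 in Released stayed above both Control libraries, Jun by far the more.

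**Figure D5:**
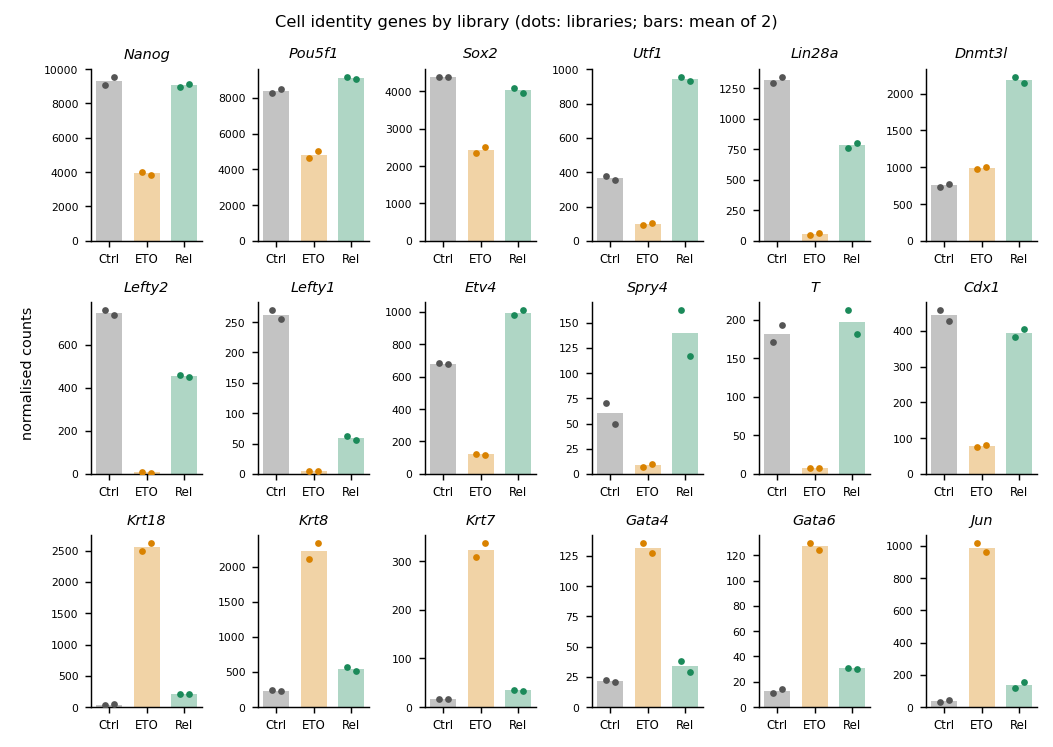
Normalised counts (vertical axes, each starting at 0) of 18 genes of cell identity and signalling in the Control, ETO and Released (Rel) libraries: dots are libraries, bars the mean of 2. Keratins, Gata4, Gata6 and Jun are highest in ETO and remain above Control in Released, and Utf1, Dnmt3l, Etv4 and Spry4 are highest in Released.

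Markers of other cell types that a stem cell culture could hold were read as whole lists. The trophectoderm markers were highest in ETO, where all 12 tested members together summed to 12028 and 12716 normalised counts, against 6539.9 and 6371 in Released and 5273 and 5161 in Control. Of the 12, 8 fell and 4 rose (median -1.57, -0.94 with no minimum). Krt18, a keratin of simple epithelia, measured 2501 and 2618 in ETO, 214 and 207 in Released and 29.7 and 44.6 in Control (log2 change -3.60, SE 0.17, adjusted p = 1.26e-10). Krt8, its partner in filaments, measured 2116 and 2334 in ETO, 578 and 509.7 in Released and 238 and 223 in Control (log2 change -2.03, SE 0.12, adjusted p = 1.72e-09). Krt7 measured 309 and 337 in ETO, 35.8 and 34.0 in Released and 16.5 and 16.6 in Control (log2 change -3.17, SE 0.15, adjusted p = 2.29e-10). These 3 keratins stayed above both Control libraries after release. The defining factor Cdx2 was among the rises (log2 change 2.71, from 5.93 and 7.47 to 55.8 and 43.4), with Fgfr2 (0.80, in a row with Ctbp2), Tfap2a (0.69) and Tead4 (0.49), so that the keratins and Cdx2 moved in opposite directions. The call of Tfap2a was lost without Released replicate 1.

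Of 15 tested primitive endoderm markers, 8 fell and 4 rose (median -0.40), with 5 falls without ETO replicate 2 and 2 rises without ETO replicate 1 or by total signal. The list was divided, with log2 changes from -2.28 to 2.09. In 3 of the 4 rises both Released libraries lay above both Control libraries, against 1743 of all 5315 genes that rose. Gata6, which specifies this lineage, measured 129 and 125 normalised counts in ETO, 31.0 and 30.5 in Released and 11.01 and 14.5 in Control (log2 change -2.01, SE 0.30, adjusted p = 3.98e-05). Gata4 measured 135 and 127 in ETO, 37.9 and 29.3 in Released and 22.0 and 20.8 in Control (log2 change -1.95, SE 0.22, adjusted p = 1.67e-06). Both factors were highest in ETO and stayed above Control in Released. The summed level of the 15 was 17702 and 19553 in ETO, 16977 and 17058 in Released and 15910.4 and 15437 in Control, of which Sparc, a matrix protein, gave 8643 and 8636 in ETO and 5629.5 and 5462 in Released. Sox7 and Ttr were at or under 3 reads in every ETO and Released library.

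Of the mesoderm and primitive streak genes 10 could be tested, and of these 4 rose and 1 fell (median 0.70, 0.36 without ETO replicate 1, 0.30 with no minimum and 1.10 with a minimum of 50). Besides T and Cdx1, Evx1, a streak homeobox gene, measured 3.95 and 2.49 normalised counts in ETO and 40.5 and 37.5 in Released (log2 change 3.26, SE 0.56, adjusted p = 0.000127), and Snai1, which drives epithelial to mesenchymal transition, 63.3 and 68.1 in ETO and 139 and 145 in Released (log2 change 1.10, SE 0.22, adjusted p = 0.000526). Both exceeded Control, which measured 15.4 and 11.4 for Evx1 and 62.7 and 88.2 for Snai1. The ETO values of Evx1 were near the limit of 3 reads. Tbx6 fell (log2 change -1.78), a call lost without ETO replicate 1 or Released replicate 1. The list summed to 382 and 401 in ETO, 974 and 967 in Released and 819 and 837 in Control, and Mesp1 and Hand2 were at or under 3 reads in all 4 compared libraries.

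Neural and fibroblast markers gave no common direction. Nes, the intermediate filament nestin, fell from 689 and 683 normalised counts in ETO to 251 and 245 in Released (log2 change -1.47, SE 0.088, adjusted p = 1.94e-09), and of the other 6 neural markers Sox11 (0.55) and Ncam1 (0.25) rose, and at most 1 of these calls was made with any 1 ETO or Released library left out. Of 6 fibroblast and feeder markers Vim, the filament vimentin, rose from 2576 and 2587 to 4798 and 4725 (log2 change 0.88, SE 0.056, adjusted p = 3.26e-09), and Col1a1, the collagen chain, fell from 152 and 154 to 41.3 and 32.8 (log2 change -2.03, SE 0.26, adjusted p = 6.77e-06). The FPKM table did not call Col1a1. The other calls of this list, a rise of Thy1 (log2 change 1.37) and a fall of Fn1 (-0.22), were each lost when certain single libraries were left out, Thy1 without ETO replicate 2 or Released replicate 1 and Fn1 without ETO replicate 2 or either Released replicate. The neural list summed to 1431 and 1361 in ETO, 1034 and 1040.0 in Released and 1049 and 1019 in Control, and the fibroblast list to 17632 and 21581 in ETO, 19146 and 19306 in Released and 22411 and 22172 in Control. Dcx, of neurons, and the fibroblast genes Twist2, Prrx1, Postn, Dcn and Acta2 were at or under 3 reads in every ETO and Released library. Of the marker genes with a row of their own, 0 were at 0 in all 4 libraries. The part of such cells in the other results was not tested.

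The genes that ended farthest beyond Control in the direction they had moved were chosen for that distance, so it is given as a description. Nt5e, the ecto-nucleotidase CD73, measured 58.3 and 57.3 normalised counts in ETO, 162 and 145 in Released and 44.0 and 38.4 in Control (log2 change 1.39, SE 0.36, adjusted p = 0.00383). Plscr2, a phospholipid scramblase, measured 18.8 and 8.30 in ETO, 53.7 and 60.9 in Released and 18.7 and 17.6 in Control (log2 change 2.101, SE 0.50, adjusted p = 0.00195). In the other direction, Lrrc15, a leucine-rich repeat protein of the membrane, measured 104 and 109.6 in ETO, 61.3 and 62.1 in Released and 278 and 317 in Control (log2 change -0.78, SE 0.12, adjusted p = 6.14e-05). S100a13, a calcium-binding protein, measured 183 and 197 in ETO, 95.0 and 62.1 in Released and 194 and 237 in Control (log2 change -1.29, SE 0.16, adjusted p = 4.84e-06), and Gpx6, a glutathione peroxidase, 148 and 163 in ETO, 11.02 and 19.9 in Released and 55.0 and 29.1 in Control (log2 change -3.30, SE 0.27, adjusted p = 1.57e-07). For Lrrc15 the ETO libraries were already below Control and Released lay lower still, whereas for Gpx6 ETO was the highest group. Cited4 (log2 change 0.77), Rapgef3 (0.91) and Ephb1 (-0.76) also belong here, with calls lost when any 1 ETO or Released library was left out.

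Kat8, the MOF acetyltransferase of the other experiment of the series (chromosome 7, 127912517 to 127925838), measured 566 and 529.7 normalised counts in ETO, 339 and 395 in Released and 372 and 383 in Control (log2 change -0.58, SE 0.11, adjusted p = 0.000451). Its ETO libraries were the highest. Of the 12 genes of the MOF, MSL and NSL complexes 5 rose and 3 fell (median 0.16, 0.28 without ETO replicate 2, 0.27 in the FPKM table and 0.023 to 0.059 by 3 other scalings). Wdr5, a scaffold shared with other chromatin complexes, rose from 4085 and 3985 to 6638 and 6549 (log2 change 0.71, SE 0.050, adjusted p = 1.23e-08), and Msl3, the chromodomain subunit of MSL, fell by 0.92 (adjusted p = 0.000148).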

How the data were processed

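Gene RNA was measured by single-end sequencing of total RNA in 10 libraries, 2 per group. The submitters' processing notes list TopHat2 2.1.1, a spliced aligner, SAMtools 1.5 and the build mm10, and the program behind the gene tables and its use of strand are not given in the sources used here, so overlapping and antisense genes cannot be told apart. The deposited normalised count table, treated as signal, held reads that the authors had divided by 1 factor per library, judged from the values: 89.0 to 90.3% of its values under 20 reads were whole within 0.1 read of such a step, which is why no count model was used. A deposited FPKM table (fragments scaled to gene length and library size, per the file headers) served for levels per length and as an alternative.

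Rows of 1 name were summed (1205 rows), 1314 rows that merge several genes were kept as they were, and 3 mitochondrial rows listed at 0 in Released replicate 1 were left out. Genes with at least 10 normalised counts in at least 2 of the 10 libraries, of whichever group, were tested on log2(value + 1). The fit was by limma 3.58.1 in R 4.3.3, with 1 mean per group over all 10 libraries, an intensity trend and robust fitting. Benjamini-Hochberg adjustment was over the 16056 genes. On simulated data the same fit recovered 42.7% of 1.5-fold, 81.5% of 2-fold and 97.3% of 4-fold changes, and 4.99% of its calls were false. Far fewer genes were changed there than were called here, so these rates may not carry over. Text names the 12 largest changes each way among single genes with established names, the higher group averaging 50 or more and no overlap of the 2 groups, up to 4 called genes per list with the smallest adjusted p, fixed genes of interest and those farthest beyond Control. A few genes that the rule names are not reported here. Other list members were named after their values were seen. Members and lists were chosen with earlier results of these data known. Gene coordinates and promoters are RefSeq's on GRCm38.p6, the build of mm10. Plots and tables used Python 3.11.15, numpy 2.4.6, pandas 2.3.3 and matplotlib 3.10.9. The alternatives were other pseudocounts, minimums, scalings and sample sets, the FPKM table, rows kept apart, a replicate block, and each ETO or Released library left out.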

Additional observations from a re-analysis of the deposited data

How the results depend on the processing

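Of 19 alternatives, all kept the numbers of rising and falling genes within 1.5 times those reported, at any size and at 2-fold or more. With 1 ETO or Released library left out, 4271 to 4556 genes rose and 3221 to 3328 fell. For genes at least 2-fold changed these ranges were 1135 to 1251 and 1527 to 1640. The FPKM table gave 3984 rises and 2901 falls, with 3 genes called in opposite directions. The labels do not say whether replicate numbers pair the libraries. The correlation of the deviations of same-numbered ETO and Released libraries was -0.0150, which cannot settle it, since a small shared effect could be missed. With a replicate block 5371 genes rose and 3982 fell over all 10 libraries, or 5729 and 4343 over the ETO and Released libraries alone. Of the 193 genes that the naming rule chose, 183 kept their call in every alternative run. The others were the merged row of Rpl27a, Cited4, Col1a1, Eif1a, Ephb1, Fn1, Ncam1, Rapgef3, Sox11 and Thy1. Fn1 alone turned its direction, to a log2 change of 0.000225 in the FPKM table, and the cause was not tested. Of all 856 called list members, 635 kept their call in every alternative run and 221 lost it in at least 1. Those of the 221 that the text names outside the rule are Acsl1, Clpx, Crat, Crot, Dkc1, Dnaja3, Ebp, Fosl1, Klf5, Lin28b, Lin54, Lonp1, Mlx, Mrps6, Pfkfb4, Prdx3, Slc2a1, Spry1, Stat3, Tbx6, Tfap2a, Tfe3 and Tfeb. Depth limits genes near 3 reads, where a fitted change depends on the added count of 1.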

Other observations

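Imprinted and germline genes had no common direction. Of 25 tested imprinted genes 8 rose and 10 fell (median -0.25, -0.048 without Released replicate 1, -0.42 without Released replicate 2, -0.38 by total signal and -0.40 with a minimum of 50), with 3 to 4 rises in the FPKM table and without ETO replicate 2 or Released replicate 2. Grb10, an adaptor that restrains growth factor signalling, measured 2901 and 3054 normalised counts in ETO, 861 and 875 in Released and 665 and 658 in Control (log2 change -1.78, SE 0.070, adjusted p = 2.49e-11). Peg3, a zinc finger gene expressed from the paternal copy, measured 1307 and 1544 in ETO, 505 and 531 in Released and 797 and 756 in Control (log2 change -1.45, SE 0.079, adjusted p = 6.94e-10). Plagl1, a zinc finger factor of a fetal growth network, went the other way, with 306 and 325 in ETO, 1005 and 981 in Released and 779 and 831 in Control (log2 change 1.65, SE 0.081, adjusted p = 2.57e-10). Of 20 germline genes 6 rose and 8 fell (median -0.37, -0.97 with a minimum of 50), with 2 rises without Released replicate 2. The neighbouring X-linked homeobox genes Rhox6 and Rhox9 both fell. Rhox6 measured 131 and 169 in ETO, 31.7 and 28.1 in Released and 14.3 and 15.6 in Control (log2 change -2.28, SE 0.23, adjusted p = 6.47e-07), and Rhox9 measured 102 and 91.3 in ETO, 11.02 and 17.6 in Released and 15.4 and 8.30 in Control (log2 change -2.71, SE 0.32, adjusted p = 2.91e-06). Kit, the receptor of stem cell factor, rose from 1682 and 1888 to 3412 and 3535 (log2 change 0.96, SE 0.066, adjusted p = 7.81e-09).

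The interferon response list held 14 tested genes. Of these 5 rose (35.7%) and 3 fell (21.4%), near the 33.1% and 24.6% of all tested genes. The median of 0.10 turned negative by total signal and its reduced form, less the mitochondrial and the 20 highest genes. It was 0.36 with a minimum of 50 and 0.00042 by median-of-ratios factors. Ddx58, the RNA sensor RIG-I, measured 473 and 439 normalised counts in ETO, 854 and 905 in Released and 844 and 860.4 in Control (log2 change 0.95, SE 0.12, adjusted p = 4.45e-06). Ifitm1, an interferon-induced membrane protein that early embryos also express, measured 915 and 923 in ETO, 1948 and 2004 in Released and 2751 and 2676 in Control (log2 change 1.10, SE 0.074, adjusted p = 6.06e-09).

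More genes were called among those with higher levels. Of 5731 genes with a mean under 100 normalised counts 18.2% rose and 20% fell, of 7145 between 100 and 1000 37.2% rose and 28.6% fell, and of 3180 above 1000 50.8% rose and 23.9% fell. By chromosome, for the 13677 genes with a RefSeq position, the share that rose on the autosomes and the X ran from 26.1% on chromosome 14 to 37.1% on chromosome 16. Of the 576 tested genes on the X, 34.7% rose and 17.7% fell, the lowest falling share of these chromosomes, against 22.6% on chromosome 7, the next lowest.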
